A study of Bos taurus with 8 samples.

Results

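Fibronectin, vitronectin, 4 laminin chains, both nidogens, perlecan and agrin were followed in bovine embryonic stem cells (bESCs). The members were the 10 rows of the count file named FN1, VTN, LAMA1, LAMA5, LAMB1, LAMC1, NID1, NID2, HSPG2 and AGRN, of 32640 genes listed. All 10 were found in the file and 9 passed the filter on low counts, VTN being the exception. RNA was sequenced from 4 bESC lines (A, C, D and E, all labelled XX and derived from early or full blastocysts), each kept in 5% O2 under 2 conditions, with 4 libraries per condition and 8 in all. In the MEF condition, bESCs grew on a layer of irradiated CF1 mouse embryonic fibroblasts and were sampled at passage 15 to 17. In the feeder-free condition, the same lines grew on plates coated with vitronectin (VTN) and were sampled at passage 20 to 22, so the growth surface, the feeder cells and the passage changed together and cannot be told apart. Activin A is named in the medium of both conditions by the labels and in that of feeder-free culture alone by the study's methods. Total counts on genes were 44268717, 54296425, 47836940 and 45206672 on MEF and 49671478, 51320214, 102351560 and 51068232 in feeder-free conditions (lines A, C, D and E in turn). The deep library of line D did not make the totals of the conditions differ beyond the spread between libraries (two-sided exact permutation test of the means, p = 0.1714, where the smallest possible p was 0.0286, n = 4 per condition).

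Epithelial cells, including those of the early embryo, secrete a basement membrane on which they rest. Laminins, each built from an alpha, a beta and a gamma chain, assemble into a sheet at the cell surface, and nidogens, perlecan (HSPG2) and agrin (AGRN) tie that sheet to a network of collagen IV. Fibronectin (FN1) and vitronectin (VTN) belong instead to the provisional matrix of wounds and of cells in culture, where integrins bind them. Laminins with the alpha chain LAMA5, and vitronectin itself, are common coatings for pluripotent cells without feeders. The libraries carried the markers of bESCs: POU5F1 and 4 other pluripotency genes (SOX2, NANOG, SALL4 and LIN28B) summed to between 3338 and 3802 CPM on MEF and to between 2914 and 3033 CPM in feeder-free conditions. The groups did not overlap, and all 5 genes had log2 fold changes below 0, from -0.58 for SALL4 to -0.15 for POU5F1, with 0 of 5 past both thresholds in either fit (1.00% of all genes lower unpaired and 4.53% paired). SALL4 had an adjusted p of 0.0426 (edgeR) at 1.49-fold lower, just short of the fold change required for a call. In the paired fit SALL4, SOX2 and LIN28B had adjusted p of 0.00614, 0.0436 and 0.0456 (edgeR), and all feeder-free values of these 3 genes lay below all MEF values (8.36% of all genes). The part of this shift in the results below was not tested. Levels are given in CPM (the counts of a gene scaled to a common, TMM-normalised library size), and the matrix genes are not ranked by them because CPM does not correct for transcript length.

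Transcripts for fibronectin, the laminin chains and the other basement membrane proteins showed no difference between MEF and VTN that stood out from the spread between libraries when the lines were not paired, and with pairing NID1 was higher on VTN. Of the 9 tested genes, 0 were upregulated and 0 downregulated in feeder-free conditions by edgeR's quasi-likelihood test, where a call needed a fold change of 1.5 or more and a P-value under 0.05 after Benjamini-Hochberg adjustment. At an unadjusted P-value under 0.05 the count was 0 as well (21.6% of all genes). It was also 0 at the adjusted thresholds by DESeq2 (4.41% of all genes higher, 3.28% lower) and by limma-voom (0.502% and 0.953%). By edgeR, over all 15744 genes tested, 0.724% were upregulated and 1.00% downregulated, so that a count of 0 among 9 genes does not set them apart from other genes. The unpaired 95% intervals of every tested gene but NID2 reached past a fold change of 1.5, upward to 0.74 for FN1, 0.98 for HSPG2 and 1.39 for NID1 on the log2 scale and downward to -0.69 for LAMC1, and changes up to these sizes are within what the unpaired fit allows. When cell line was added as a paired term (replicate block), NID1 was upregulated, against a background of 5.52% of genes upregulated and 4.53% downregulated. In this paired fit the 95% intervals of every tested gene but NID1 lay within a fold change of 1.5 in either direction. They reached up to 0.53 for NID2, 0.50 for FN1 and 0.46 for HSPG2 and down to -0.47 for LAMC1 on the log2 scale. On simulated counts the paired fit made more false calls than its nominal rate, so its calls and intervals are less certain. No tested gene had 4 feeder-free libraries above or below all 4 MEF libraries, beside 6.21% of all genes wholly above and 8.36% wholly below. At these shares 9 genes may hold none, so this count does not set them apart either. Log2 fold changes (feeder-free over MEF) were above 0 for 7 genes and below 0 for 2, with a median of 0.13 beside 0.01 over all genes. With a library left out, the median of the tested matrix genes ran from 0.0068 (without feeder-free line C) to 0.278 (without MEF line D).

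**Figure D1:**
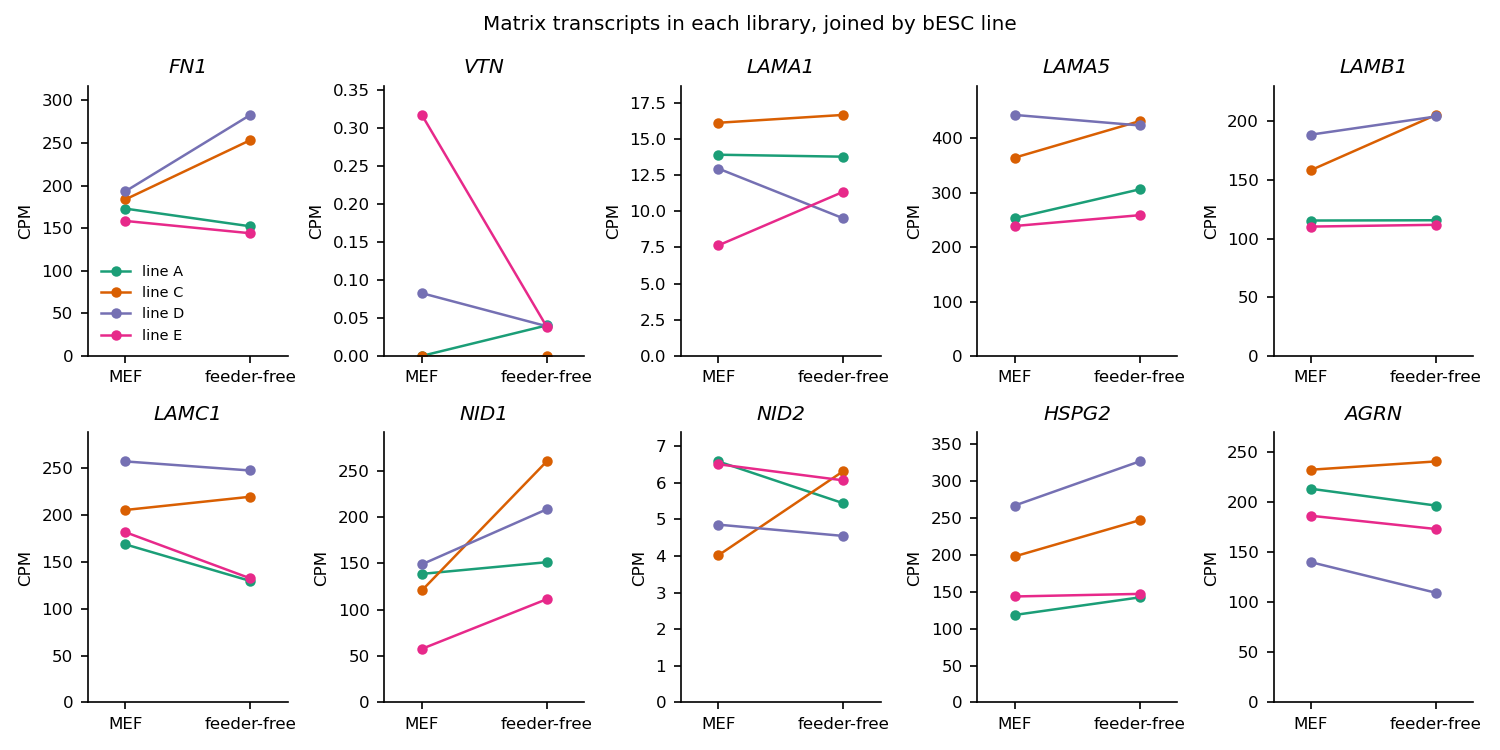
CPM of each of the 10 genes in every library, with MEF and feeder-free cultures on the horizontal axis, 1 point per library and lines joining the cultures of the same bESC line (each panel has its own vertical axis from 0). The points of the 2 conditions overlap in every panel, the lines C and D lie above A and E for LAMA5, LAMB1 and HSPG2, and NID1 rises along all 4 lines.

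Fibronectin is secreted as a dimer and drawn into fibrils by integrins. FN1 (chromosome 2, 103361560 to 103430752, in ARS-UCD2.0) had 173, 184, 193 and 159 CPM on MEF and 152, 253, 283 and 144 CPM in feeder-free conditions (lines A, C, D and E). The feeder-free libraries of lines C and D were the highest of the 8 and those of lines A and E the lowest, so the feeder-free values enclosed the MEF values. Mean FN1 was 177 ± 15.0 CPM on MEF and 208 ± 70.5 CPM in feeder-free conditions (SD, n = 4 each). The log2 fold change of 0.23 (95% interval -0.27 to 0.74) was within the spread between libraries (adjusted p = 0.6025, edgeR's quasi-likelihood test). By line it was -0.18 in A, 0.46 in C, 0.55 in D and -0.14 in E, that is, higher in 2 lines and lower in the other 2. The paired fit gave 0.17 (-0.15 to 0.50), an interval that lies within a fold change of 1.5 in either direction.

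Vitronectin, a glycoprotein of blood plasma made mainly by the liver, was the coating of the feeder-free plates. Its own transcript, VTN (chromosome 19, 19855911 to 19858842), had 0, 0, 4 and 14 counts on MEF and 2, 0, 4 and 2 counts in feeder-free conditions. The highest value, 0.317 CPM in line E on MEF, came from 14 counts among 45206672. A count of 0 allows up to 3 counts, or 0.0720 CPM in line A on MEF, 0.0545 CPM in line C on MEF and 0.0565 CPM in line C in feeder-free conditions (counting error only). In 7 of the 8 libraries VTN thus had at most 4 counts, and no fold change is given.

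The 4 laminin genes code for 2 alpha chains (LAMA1 and LAMA5), which carry the binding sites for cell receptors, 1 beta chain (LAMB1) and 1 gamma chain (LAMC1). LAMA5 (chromosome 13, 54887604 to 54939286) had 253, 364, 443 and 239 CPM on MEF and 306, 432, 424 and 259 CPM in feeder-free conditions. Lines C and D were high and lines A and E low in each condition, and the groups overlapped throughout. Its log2 fold change was 0.13 (-0.42 to 0.67; adjusted p = 0.818, edgeR), with 3 of 4 lines higher in feeder-free conditions. LAMA1, the alpha chain of the earliest embryonic basement membranes (chromosome 24, 39951574 to 40077260), had 13.9, 16.1, 12.9 and 7.63 CPM on MEF and 13.8, 16.6, 9.51 and 11.3 CPM in feeder-free conditions. Its lowest library was line E on MEF and its highest line C in feeder-free conditions, a span much wider than the log2 fold change of 0.02 (-0.56 to 0.60; adjusted p = 0.981, edgeR).

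LAMB1 (chromosome 4, 48985684 to 49062382) had 115, 158, 189 and 110 CPM on MEF and 116, 205, 204 and 112 CPM in feeder-free conditions. Lines A and E were almost level between conditions and line C rose most, by 0.37 on the log2 scale. The log2 fold change was 0.15 (-0.43 to 0.74; adjusted p = 0.793, edgeR). LAMC1, the gamma chain shared by most laminins (chromosome 16, 64062643 to 64183739), had 169, 205, 257 and 182 CPM on MEF and 130, 220, 248 and 132 CPM in feeder-free conditions. Its values in lines A and E were the lowest of the 8 in feeder-free conditions, with log2 ratios of -0.38 and -0.46, while lines C and D stayed within 0.10 and -0.06 of their MEF cultures. The log2 fold change was -0.16 (-0.69 to 0.38; adjusted p = 0.765, edgeR).

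Counts of the beta chain relative to the gamma chain did not overlap between conditions, whereas the levels of each chain did. The log2 ratio of LAMB1 to LAMC1 counts, in which library size cancels, was -0.55, -0.38, -0.45 and -0.72 on MEF and -0.17, -0.10, -0.28 and -0.24 in feeder-free conditions. All 4 feeder-free values lay above all 4 MEF values, and the ratio was higher in 4 of 4 lines. The mean moved from -0.52 ± 0.15 to -0.20 ± 0.08 (SD, n = 4 each), a difference of 0.33. No test was run on it, since it was 1 of 6 ratios computed and was singled out after the values were seen. Among single genes, 6.21% lay wholly above and 8.36% wholly below in feeder-free conditions. The share among ratios of other gene pairs was not computed, so the separation does not set this ratio apart. The other ratios overlapped between conditions: LAMA5 to LAMA1 averaged 4.69 on MEF and 4.79 in feeder-free conditions, and LAMA5 to LAMC1 averaged 0.65 and 0.99. A ratio of counts describes an unequal change between chains and not the amount of either protein.

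**Figure D2:**
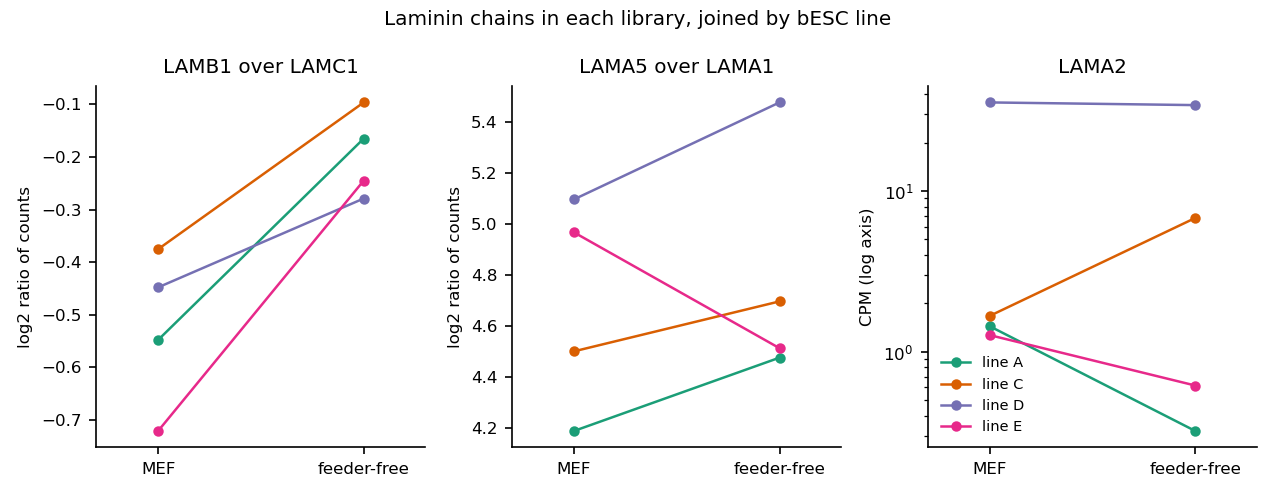
Log2 ratio of LAMB1 to LAMC1 counts (left), log2 ratio of LAMA5 to LAMA1 counts (middle) and LAMA2 level in CPM on a log axis (right), with 1 point per library and lines joining the cultures of the same bESC line. The ratio of LAMB1 to LAMC1 runs from -0.72 to -0.38 on MEF and from -0.28 to -0.10 in feeder-free conditions, and LAMA2 lies above 30 CPM in both libraries of line D alone.

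Of the 8 other laminin chain genes, LAMB4 was not found in the file, and LAMA3 and LAMC3 were removed as too low. None of the 5 that were tested passed the thresholds with or without pairing, which with so few genes is near the shares over all genes (0.724% and 1.00% unpaired, 5.52% and 4.53% paired). LAMA2, the alpha chain typical of muscle, had 1.44, 1.67, 35.6 and 1.27 CPM on MEF and 0.321, 6.80, 34.3 and 0.616 CPM in feeder-free conditions. Line D held most of the LAMA2 transcript in both conditions, and its 2 libraries differed by only 0.06 on the log2 scale. LAMA4, an alpha chain of blood vessels, had 12, 4, 30 and 12 counts on MEF and 30, 154, 124 and 38 counts in feeder-free conditions. It was higher in 4 of 4 lines with a log2 fold change of 2.12, but the feeder-free count of line A equalled the MEF count of line D and the adjusted p was 0.124 (edgeR). LAMB2, the beta chain that replaces LAMB1 in mature basement membranes, had a log2 fold change of -0.09 and LAMB3 of -0.34 (adjusted p of 0.859 and 0.518, edgeR). LAMA3, the alpha chain of skin, had 0 counts in 6 libraries and 4 and 14 counts in the feeder-free libraries of lines C and D. LAMC3 had 2, 2, 0 and 0 counts on MEF and 5, 11, 13 and 4 in feeder-free conditions, too few for a statement on its level.

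Nidogens bridge laminin and collagen IV. NID1 (chromosome 28, 8687270 to 8784202) had 139, 121, 149 and 57.8 CPM on MEF and 151, 260, 208 and 111 CPM in feeder-free conditions. Line E on MEF was the lowest and line C in feeder-free conditions the highest of the 8, and the groups overlapped because line E started low. Within each line the feeder-free culture was higher, by 0.13 in A, 1.11 in C, 0.48 in D and 0.95 in E on the log2 scale. Mean NID1 was 117 ± 40.9 CPM on MEF and 183 ± 65.1 CPM in feeder-free conditions (SD, n = 4 each). The unpaired log2 fold change was 0.65 (-0.09 to 1.39) with an adjusted p of 0.291, and the paired one was 0.67 (0.31 to 1.02) with an adjusted p of 0.0230 (edgeR's quasi-likelihood test in both). The paired call was lost when line C, D or E was left out and was kept without line A.

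NID2 (chromosome 10, 44846567 to 44939160) had 6.58, 4.01, 4.85 and 6.50 CPM on MEF and 5.44, 6.31, 4.54 and 6.06 CPM in feeder-free conditions. It was higher without feeders in line C alone, by 0.65 on the log2 scale. The log2 fold change was 0.03 (edgeR), and the adjusted p was 0.836 or more by edgeR, DESeq2 and limma-voom in the settings compared. The paired fits without a line are left out of that range. NID2 shares its span with LOC613519, which had a mean of 2.5 CPM, so its low counts are less certain than those of NID1. The log2 ratio of NID1 to NID2 averaged 4.35 on MEF and 4.97 in feeder-free conditions and was higher in 4 of 4 lines, with overlapping values.

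Perlecan and agrin are large heparan sulfate proteoglycans that bind laminins and growth factors. HSPG2 (perlecan; chromosome 2, 130867527 to 130977472) had 119, 198, 267 and 144 CPM on MEF and 142, 247, 327 and 147 CPM in feeder-free conditions. All 4 lines had more of it in feeder-free culture, by 0.26, 0.32, 0.29 and 0.03 on the log2 scale, steps that were small beside the gap between lines A and D. The log2 fold change was 0.25 (adjusted p = 0.720) without pairing and 0.23 (adjusted p = 0.159) with it, both by edgeR. AGRN (agrin; chromosome 16, 51422630 to 51461881) had 213, 232, 140 and 186 CPM on MEF and 197, 241, 109 and 173 CPM in feeder-free conditions. Line D was the lowest and line C the highest in each condition, which for line D is the reverse of its place for HSPG2. The log2 fold change was -0.10 (adjusted p = 0.861, edgeR), lower in 3 of 4 lines. The log2 ratio of HSPG2 to AGRN reached 0.93 and 1.58 in the libraries of line D, the highest of the 8.

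**Figure D3:**
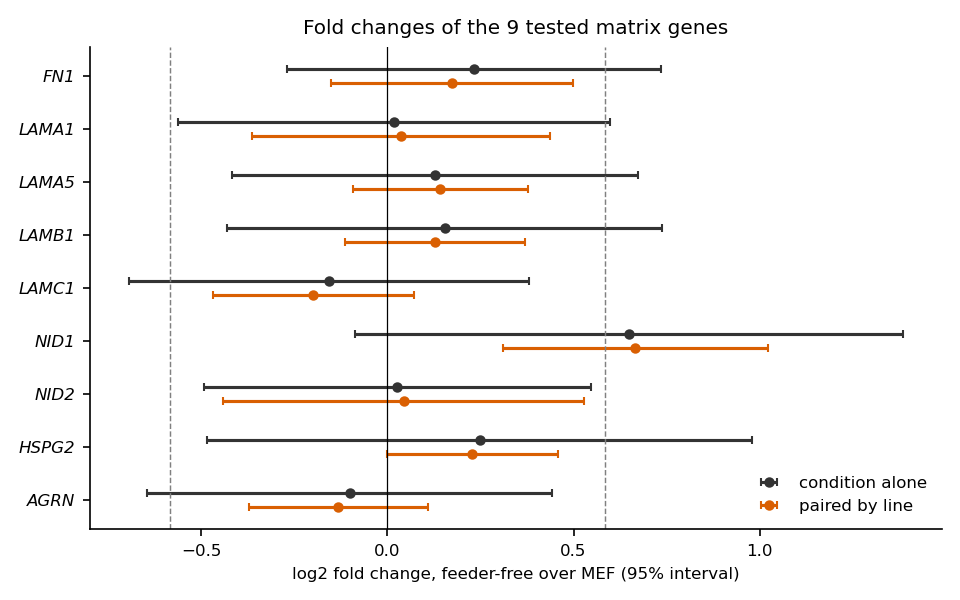
Log2 fold changes of the 9 tested genes (horizontal axis, feeder-free over MEF) with 95% intervals, from edgeR fits on condition alone (dark) and paired by line (orange); dashed lines mark a fold change of 1.5 in each direction. In the paired fit NID1 alone has an interval wholly above 0, from 0.31 to 1.02.

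Across the 8 libraries, most of these genes varied more between cell lines than between conditions. With condition kept in the model, the line effect was called for 6 of the 9 tested genes (edgeR's quasi-likelihood F test, adjusted p under 0.05), beside 11.8% of all genes tested. The 6 were HSPG2, LAMB1, LAMA5, AGRN, NID1 and LAMC1, with adjusted p of 0.00287, 0.0120, 0.0157, 0.0168, 0.0270 and 0.0346. HSPG2 spanned 2.27-fold between the mean of line D and that of line A, and NID1 2.21-fold between lines C and E. AGRN spanned 1.91-fold from line C down to line D, and LAMB1, LAMA5 and LAMC1 spanned 1.77-fold, 1.74-fold and 1.71-fold with line D highest. FN1 (1.55-fold, adjusted p = 0.1295), LAMA1 (1.76-fold, adjusted p = 0.171) and NID2 (1.33-fold, adjusted p = 0.684) were not called by the same edgeR test. Line accounted for a median of 81.7% of the variance of log2 CPM in the 9 genes and condition for 4.13%, beside 49.5% and 18.8% over all genes. These shares are not corrected for there being 4 lines and only 2 conditions, which by itself gives line the larger share. They are therefore read beside those of all genes. NID1 had the largest share for condition, 30.3% beside 59.5% for line. LAMA2 had a line effect as well (48.2-fold between lines D and A, adjusted p = 0.00245, edgeR). Each line had 1 library per condition, so the spread behind these tests is what is left after line and condition, and nothing tells a stable difference between lines from a difference in how their cultures were handled. The line fit also made more false calls than its nominal rate on simulated counts.

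**Figure D4:**
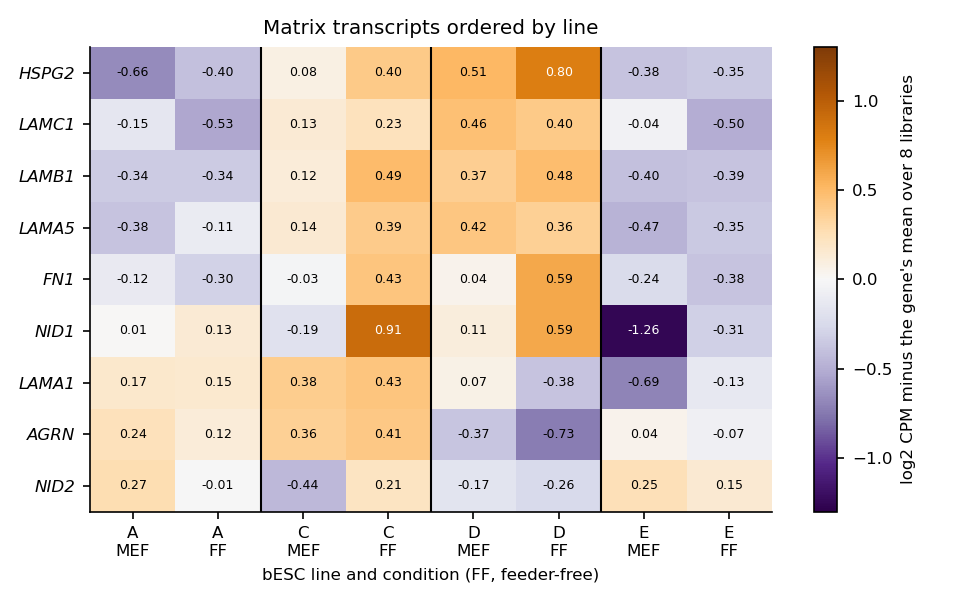
Log2 CPM of the 9 tested genes minus the mean of each gene over the 8 libraries, with libraries in columns ordered by bESC line and condition (FF, feeder-free) and genes in rows; orange is above and purple below the mean. Lines C and D are mostly orange and lines A and E mostly purple from HSPG2 to FN1, whereas AGRN is lowest in both libraries of line D.

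The genes with high values in lines C and D moved together. After the mean of each condition was removed, the correlation over the 8 libraries was 0.96 between LAMC1 and HSPG2, 0.96 between LAMB1 and LAMC1, 0.96 between LAMA5 and LAMB1, and 0.94 between FN1 and LAMC1. AGRN did not follow them, with correlations from -0.53 (HSPG2) to -0.28 (LAMA5) with LAMA5, LAMB1, LAMC1, HSPG2 and FN1, near 0 with NID1 and 0.60 with LAMA1. NID2 was negatively correlated with the same 5 genes, from -0.64 (LAMA5) to -0.36 (FN1). These points share 4 lines, so the correlations describe mainly the order of the lines and carry no test. Among 10732 genes with a mean of at least 5 CPM, those with log2 CPM most like FN1 over the 8 libraries were DSC2 (r = 0.978), COL16A1 (0.9753), LOXL2 (0.953), STT3A (0.951) and PDP2 (0.950). LOXL2 crosslinks collagens, and COL16A1 is itself a collagen. Among those most like the mean of LAMA1, LAMB1 and LAMC1 were NUP107 (r = 0.973), NOTCH1 (0.971), CENPJ (0.961) and CLSPN (0.960).

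The other genes of the basement membrane gave no calls, beside 0.724% of all genes higher and 1.00% lower unpaired and 5.52% and 4.53% paired, shares at which lists of this size may hold none. Of 7 tested genes for collagen IV chains and collagens XV and XVIII, 0 were called with or without pairing, with a median log2 fold change of -0.17. At an unadjusted P-value under 0.05 the count was 1 (21.6% of all genes). COL4A1, the most widespread collagen IV chain, was picked out after its values were seen, with 130 CPM on MEF and 125 CPM in feeder-free conditions on average. Of 15 tested genes for proteins that bind or crosslink basement membranes, among them SPARC, fibulins and netrins, 0 were called in either fit by edgeR, with 3 at an unadjusted P-value under 0.05 (21.6% of all genes) and a median of -0.09. NTN1 and PXDN passed the adjusted threshold in the paired fit but not the fold change. NTN1 was higher (log2 fold change 0.55, adjusted p = 0.0202) and PXDN lower (-0.40, adjusted p = 0.0342) in 4 of 4 lines, both by edgeR.

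Of 9 tested receptor genes for fibronectin and vitronectin, 1 was upregulated without pairing (0.724% of all genes) and 3 with it (5.52% of all genes), and 0 were downregulated. Their median log2 fold change was 0.61 unpaired and 0.68 paired. ITGA8, an integrin alpha chain that binds fibronectin and vitronectin, had 2.88, 1.16, 2.19 and 1.61 CPM on MEF and 5.26, 6.03, 8.88 and 5.89 CPM in feeder-free conditions. Every feeder-free library lay above every MEF library, and ITGA8 was upregulated by 1.73 ± 0.33 on the log2 scale (standard error; adjusted p = 0.0399, edgeR). That call was lost on leaving out any library other than feeder-free line A, with log2 fold changes of 1.55 to 1.98. ITGB3, a beta chain of the classical vitronectin receptor, had 2.45, 3.41, 4.63 and 4.30 CPM on MEF and 6.46, 15.2, 25.5 and 8.20 CPM in feeder-free conditions. Its groups did not overlap either, and its adjusted p was 0.0538 without pairing and 0.00358 with it (log2 fold change 1.75 paired, edgeR). ITGB5, another beta chain of vitronectin receptors, had 23.8, 30.0, 38.3 and 10.1 CPM on MEF and 38.8, 41.8, 50.5 and 24.9 CPM in feeder-free conditions. It was higher in 4 of 4 lines with overlapping groups, and only the paired fit called it (log2 fold change 0.71, adjusted p = 0.0177, edgeR).

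Of 8 tested receptor genes for laminins, 0 were called without pairing and 1 upregulated with it (5.52% of all genes), and 1 passed 0.05 before adjustment (21.6% of all genes). That gene was BCAM, a receptor that binds LAMA5, with 1.75, 6.37, 11.6 and 4.69 CPM on MEF and 3.65, 29.6, 36.4 and 10.7 CPM in feeder-free conditions. It was lowest in line A and highest in line D in each condition and rose in 4 of 4 lines (paired log2 fold change 1.55, adjusted p = 0.00226, edgeR).

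Several other genes of the provisional matrix, to which FN1 belongs, were called when the lines were paired. Of 9 tested, 0 were upregulated and 1 downregulated without pairing, and 5 and 1 with it, beside 5.52% of all genes upregulated and 4.53% downregulated in the paired fit. The median log2 fold change was 1.63 unpaired and 1.05 paired. THBS1, thrombospondin, which binds cells, matrix and growth factors, had 11.2, 23.8, 89.0 and 22.7 CPM on MEF and 44.4, 305, 723 and 228 CPM in feeder-free conditions. It rose in 4 of 4 lines, while line A in feeder-free conditions stayed below line D on MEF (paired log2 fold change 3.02, adjusted p = 0.000298, edgeR). CCN1, a secreted ligand of integrins, had 8.31, 25.2, 55.0 and 15.6 CPM on MEF and 31.9, 267, 587 and 105 CPM in feeder-free conditions, with the lines in the same order as for THBS1 in each condition (paired log2 fold change 2.90, adjusted p = 0.000298, edgeR). SPP1, osteopontin, had 0.432, 1.40, 5.91 and 0.861 CPM on MEF and 2.19, 22.2, 123 and 8.33 CPM in feeder-free conditions, with line D again highest in each condition (paired log2 fold change 3.70, adjusted p = 0.000298, edgeR). CCN2 and POSTN (periostin) were called in the paired fit as well, at log2 fold changes of 0.91 and 2.77, and POSTN stayed at or below 2.62 CPM. THBS2 went the other way, with 20.5, 10.4, 12.1 and 19.9 CPM on MEF and 7.18, 2.92, 3.08 and 2.33 CPM in feeder-free conditions. All its feeder-free values lay below all MEF values, and it was downregulated without pairing (log2 fold change -2.02, adjusted p = 0.0416, edgeR). The THBS2 call was lost on leaving out any library other than feeder-free line A, with log2 fold changes of -2.18 to -1.83.

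Of 15 tested genes for enzymes and inhibitors that build, cut or protect the matrix, 1 was upregulated without pairing (0.724% of all genes), and 5 were upregulated and 1 downregulated with it (5.52% and 4.53% of all genes). The median log2 fold change was 0.76 unpaired and 0.50 paired. SERPINE2, a secreted inhibitor of thrombin and plasminogen activators, had 58.9, 34.8, 47.5 and 56.4 CPM on MEF and 86.2, 76.7, 107 and 87.7 CPM in feeder-free conditions. Its groups did not overlap (log2 fold change 0.85 ± 0.18, standard error, adjusted p = 0.0493, edgeR), but the call was at the threshold and was lost with RLE size factors (0.0501), without a count filter (0.0517, both edgeR) and in limma-voom (0.0508). PLAU, the urokinase that activates plasminogen, was called in the paired fit, from levels of at most 0.508 CPM on MEF to between 0.602 and 8.99 CPM in feeder-free conditions. The protease inhibitors TIMP2 and TIMP3 had paired log2 fold changes of 1.07 and 1.27 and the protease ADAMTS1 0.74, all called. The secreted protease HTRA1 fell from 7.37 to 3.25 CPM on average, a paired log2 fold change of -1.18. The call of SERPINE2 was lost on leaving out any of the 8 libraries. THBS1 and TIMP3 lie across other annotated genes (FSIP1 and SYN3), and whether reads were counted by strand is not given in the sources used here.

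**Figure D5:**
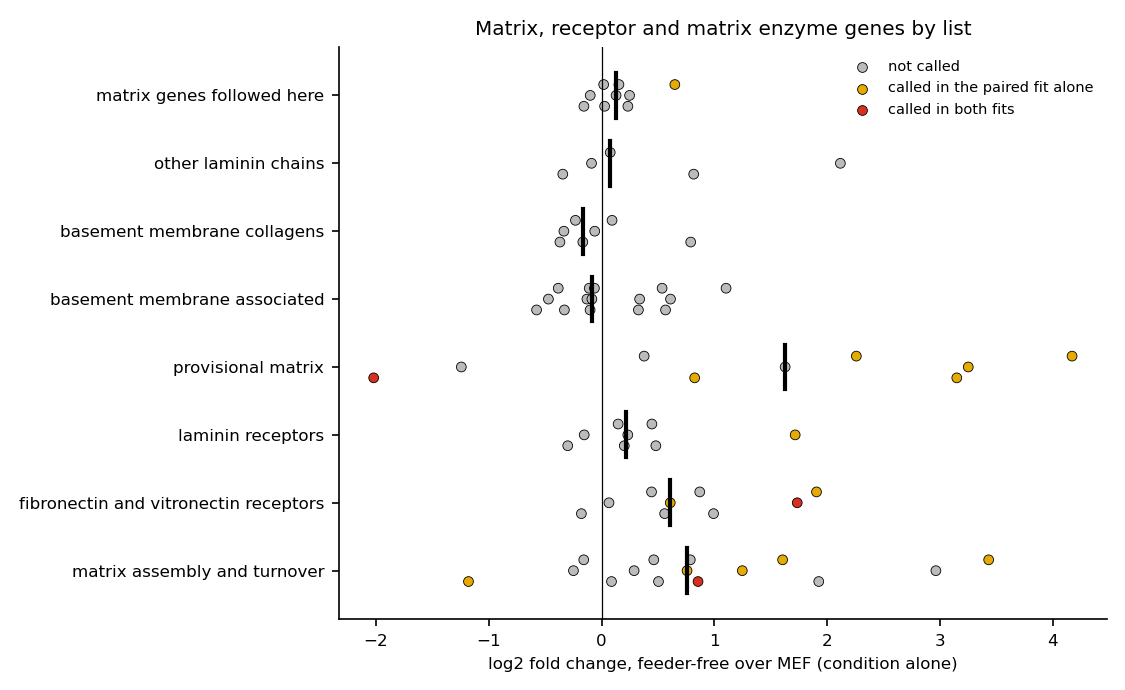
Log2 fold changes (horizontal axis, feeder-free over MEF, fit on condition alone) of the tested genes in each list, with 1 point per gene and a bar at the median of the list; grey points were not called, yellow points were called in the paired fit alone and red points in both fits. The matrix genes followed here lie between -0.16 and 0.65, and the provisional matrix list runs from -2.02 to 4.17.

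Genes of other cell types were read beside these values, because fibroblasts and extraembryonic cells also make fibronectin and laminins. The 13 fibroblast markers summed to 440, 550, 499 and 486 CPM on MEF and to 251, 848, 1239 and 387 CPM in feeder-free conditions, with COL1A1 giving the most CPM (uncorrected for length, as in all these sums) in every library. The feeder-free sums of lines C and D were the highest of the 8 and those of lines A and E the lowest, the same order of groups as for FN1. Of the 11 that were tested, 0 were called without pairing, and 1 was upregulated and 2 downregulated with it (5.52% and 4.53% of all genes), with log2 fold changes above 0 for 7 and below 0 for 4. COL1A2, a chain of collagen I, had 38, 253, 225 and 30 counts on MEF and 0, 22, 18 and 2 in feeder-free conditions, and TWIST2 had 3, 26, 32 and 2 counts on MEF and none in feeder-free conditions (0 in 4 of 4 libraries). PRRX1 had 48, 141, 127 and 45 counts on MEF and 0, 3, 62 and 2 in feeder-free conditions. COL3A1, a collagen also typical of fibroblasts, went the other way, from 0.816, 0.508, 1.57 and 0.181 CPM on MEF to 1.44, 4.99, 10.5 and 1.85 CPM in feeder-free conditions (paired log2 fold change 2.53, adjusted p = 0.00654, edgeR). The list thus did not move in a single direction: COL1A2, PRRX1, TWIST1 and TWIST2 were lower in feeder-free conditions in 4 of 4 lines, COL3A1, PDGFRB and S100A4 were higher in 4 of 4, and COL1A1 was higher in lines C and D alone. Whether the deposited MEF counts had already been freed of reads from feeder cells could not be settled, so the MEF levels and fold changes of the matrix genes may include such reads, and their part was not tested.

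The 10 hypoblast markers summed to 181, 211, 212 and 208 CPM on MEF and to 236, 336, 378 and 308 CPM in feeder-free conditions, most of it COL4A1 and APOA1. APOA1, an apolipoprotein, rose in 4 of 4 lines (log2 fold change 1.53, adjusted p = 0.0349, edgeR). It was the only tested hypoblast marker called higher without pairing (0.724% of all genes). On leaving out any MEF library, or feeder-free line C or E, no gene was called higher, so that call was lost. In contrast, GATA4, GATA6 and SOX17, the factors that define hypoblast, reached at most 0.0377, 0.352 and 0.218 CPM. FOXA2, another endoderm factor, was present at 2.90 to 14.0 CPM and lower in 4 of 4 lines (log2 fold change -0.93, adjusted p = 0.2315, edgeR), and 4 of the 5 tested hypoblast markers had log2 fold changes below 0. The 7 trophoblast markers summed to 38.3, 22.8, 23.2 and 22.3 CPM on MEF and to 41.6, 64.5, 62.4 and 114 CPM in feeder-free conditions, nearly all of it KRT7, and CDX2 had 0 counts in all 8 libraries. KRT7, a keratin, was upregulated in the paired fit (log2 fold change 1.46, adjusted p = 0.0129, edgeR), whereas the trophoblast factor GATA2 was downregulated in it (-1.45, adjusted p = 0.0447, edgeR). The part of these cell types in the matrix values was not tested. In bulk libraries, fewer cells that make a transcript and less of it per cell cannot be told apart.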

How the data were processed

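RNA-seq of 4 bESC lines under 2 conditions was examined. The authors trimmed reads with Trimmomatic, aligned them to ARS-UCD2.0 with STAR, removed optical duplicates and low quality alignments, and deposited raw counts per gene from featureCounts (Subread 1.6.2 in the submitters' processing notes). The methods also describe subtracting what a pure MEF sample contributed to MEF counts, and whether the deposited counts include this step could not be settled. That sample and the cultures in high oxygen were not analysed here. Labels name Trizol, the methods RNeasy; all libraries carry the same batch label. Strand, and whether reads or pairs were counted, are not given in the sources used here.

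The deposited counts were not altered (3 of 32640 genes lacked values, 0 columns were unused). In R 4.3.3, edgeR 4.0.16 (filterByExpr, TMM, glmQLFit, glmQLFTest on condition alone) tested 15744 genes with Benjamini-Hochberg adjustment. Standard errors came from the fold change and its F statistic, and log2 CPM used a prior count of 2. Libraries of a line are paired: their deviations from condition means correlated at 0.582 (A), 0.557 (C), 0.664 (D) and 0.421 (E), and at -0.523 to 0.249 otherwise. On simulated counts the paired and line fits made more false calls than their nominal rate. Alternatives were RLE factors, no scaling, other filters, the likelihood ratio test, DESeq2 1.42.0, limma-voom (limma 3.58.1), the paired fit, thinning the deepest library and leaving out libraries. The line test and paired fits without a line were added after seeing the data. The rule named all 10 members, all laminin chains, every other listed gene called in either fit, and the 5 genes most like FN1 and like the laminin mean; some of these are not reported here. Members and lists were chosen with earlier results of these data known. The methods count each independent line as 1 biological replicate. Separate extraction of each library is not stated, so p-values measure the spread between these libraries. Libraries of a condition differed beyond counting noise (chi-square per degree of freedom at least 40.8). RefSeq positions (ARS-UCD2.0) were found for 30268 symbols.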

Additional observations from a re-analysis of the deposited data

Results flagged for a closer look

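Of the 44 sets of 4 libraries looked at for a value far from the rest, 5 had such a value, where chance alone gives about 1 in 20 (2.2 of 44). LAMA2 on MEF stood at a log2 CPM of 5.155 in line D and at 0.38 to 0.77 in the other lines. LAMB2 on MEF stood at 4.653 in line E and at 5.49 to 5.53 in the others. The summed hypoblast markers on MEF were 181.5 CPM in line A and 208 to 212 CPM in the others. The summed trophoblast markers on MEF were 38.29 CPM in line A and 22.3 to 23.2 CPM in the others. The log2 total count in feeder-free conditions was 26.61 in line D and 25.57 to 25.61 in the others.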

How the results depend on the processing

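The count of matrix genes called without pairing was 0 in each direction under every unpaired alternative and with any library left out. With the replicate block, and with the replicate block in limma-voom, 1 was called higher (NID1, log2 fold change 0.67 and 0.66); without a line in turn that count ran from 0 to 1, and the count called lower was 0 throughout. The pairing changed no other call of a matrix gene. Signs turned for 4 matrix genes, LAMA1, NID2 and AGRN with values near 0 and HSPG2 from 0.25: LAMA1 was -0.0111 in limma-voom and, with a library left out, ran from -0.16 to 0.16, NID2 from -0.10 to 0.13, AGRN from -0.27 to 0.08 and HSPG2 from -0.02 to 0.49. The reversals came without MEF line C (NID2 -0.10, AGRN 0.0008), MEF line D (NID2 -0.03), MEF line E (LAMA1 -0.16), feeder-free line A (LAMA1 -0.02), C (LAMA1 -0.13, NID2 -0.04), D (HSPG2 -0.0229, AGRN 0.0768) and E (NID2 -0.01). FN1 kept its sign but ran from 0.05 without feeder-free line D to 0.38 without feeder-free line E, LAMA5 from 0.0035 without MEF line E to 0.31 without MEF line D, LAMB1 from 0.0068 without feeder-free line C to 0.31 without MEF line D, and LAMC1 from -0.34 without feeder-free line D to -0.02 without feeder-free line E; NID1 ran from 0.42 to 0.84. The cause was not tested.

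Over all genes, 114 were higher and 158 lower. Higher and lower counts were 73 and 97 without a count filter, 448 and 389 by the likelihood ratio test, 695 and 517 by DESeq2, 869 and 713 with the replicate block and 999 and 791 with that block in limma-voom. They were 91 lower without scaling and 199 higher with at least 10 counts in every library. With a library left out they ran from 0 to 259 higher and from 0 to 231 lower: 259 and 231 came without feeder-free line A, and leaving out any of the other 7 libraries gave at most 1 higher and 5 lower, so the shares of genes called without pairing rest on having all of these libraries. Of the other listed matrix, receptor and enzyme genes (cell type markers left out) 3 were called, 5 with at least 10 counts in every library, 11 by the likelihood ratio test, 14 by DESeq2, 16 with the replicate block, 20 with it in limma-voom, and 0 to 8 with a library left out. Levels per transcript length were not run, as no exon lengths were at hand.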
